A study of Mus musculus with 4 samples.

Results

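Ly49+ double-negative T cells were followed in single-cell RNA sequencing of MC38b tumours grown in mice. These are barcodes with transcripts of the CD3 complex and of Ly49 receptors, and with none of CD4, CD8 or Foxp3. Members were chosen by these UMI counts, so the genes of the choice carry no test. A barcode was a member if it held at least 1000 unique molecular identifiers (UMIs, counts of single captured RNA molecules), at least 500 detected genes and under 10% mitochondrial UMIs. It also needed at least 2 UMIs of Cd3d, Cd3e and Cd3g in sum, at least 1 UMI of Klra1, Klra6 and Klra7 in sum, and 0 UMIs each of Cd4, Cd8a, Cd8b1, Foxp3 and Ncr1. Barcodes in cycle (over 2 UMIs of Mki67 and Top2a) or with macrophage RNA (over 2 UMIs of the 3 C1q genes, or over 2 of Lyz2) were left out. The rule found 1117 members among 37588 deposited barcodes, 14072 T cells and 3313 double-negative T cells. The members numbered 404 in the library from mice given a combination of antibodies to mouse PD-1 and to mouse TL1A, 308 in the library from mice given the PD-1 antibody alone (anti-PD-1), and 251 and 154 in PBS 1 and PBS 2, the 2 saline libraries. All tumours were collected 24 h past dose number 2. Live cells were sorted by CD45 and CD3, remixed at 9 parts CD45+CD3+, 9 parts CD45+CD3- and 2 parts CD45-CD3-, and 20000 cells per condition were loaded. Animals were pooled before sorting, 4 for the treated arms and 2 for saline as stated, and no label ties a cell to an animal. Each treated arm is therefore 1 library, and the spread between the saline libraries may be technical.

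Ly49 receptors are lectin-like proteins that bind MHC class I, and most of them inhibit the cell that carries them. They are best known on natural killer (NK) cells, and are also carried by some memory-type CD8 T cells, by NKT cells and by some gamma-delta T cells. T cells that lack CD4 and CD8 are a mixture in which the T cell receptor decides the lineage: gamma-delta cells use the Trdc and Tcrg constant chains, alpha-beta cells use Trac and Trbc. Invariant NKT cells combine an alpha-beta receptor built on Trav11 with the transcription factor PLZF (Zbtb16), and naive T cells carry Lef1, Tcf7 and Ccr7.

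The 3 Ly49 genes of the rule lie on the minus strand of mouse chromosome 6 (build GRCm38), Klra1 (Ly49A) at chr6:130363917-130386874, Klra6 (Ly49F) at chr6:130013033-130026954 and Klra7 (Ly49G) at chr6:130218605-130233322. Because the members also carried Lef1 and Tcf7 transcripts, the 250 bases before the annotated start of each gene (RefSeq, GRCm38.p6) were searched on both strands for CTTTGA (reverse complement TCAAAG), the core letters that the TCF and LEF factors are known to bind. The windows are shown 5′ to 3′ on the gene's strand with matches in capitals, for Klra1 at chr6:130386875-130387124, Klra6 at chr6:130026955-130027204 and Klra7 at chr6:130233323-130233572.
Klra1: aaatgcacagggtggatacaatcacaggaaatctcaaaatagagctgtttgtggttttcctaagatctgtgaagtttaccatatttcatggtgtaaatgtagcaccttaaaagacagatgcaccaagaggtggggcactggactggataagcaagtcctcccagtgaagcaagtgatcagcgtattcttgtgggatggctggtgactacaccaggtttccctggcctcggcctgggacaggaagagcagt
Klra6: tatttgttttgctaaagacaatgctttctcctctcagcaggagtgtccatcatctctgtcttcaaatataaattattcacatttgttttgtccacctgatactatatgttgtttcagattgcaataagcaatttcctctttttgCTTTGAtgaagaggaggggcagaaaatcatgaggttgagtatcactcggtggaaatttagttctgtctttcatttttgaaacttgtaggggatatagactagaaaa
Klra7: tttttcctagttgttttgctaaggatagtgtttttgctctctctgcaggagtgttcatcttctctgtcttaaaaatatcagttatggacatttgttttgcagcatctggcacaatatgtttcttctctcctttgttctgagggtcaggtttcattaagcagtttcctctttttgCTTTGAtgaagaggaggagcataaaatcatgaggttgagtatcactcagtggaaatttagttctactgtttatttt
The Klra1 window held no match, Klra6 held 1 at -106 and Klra7 held 1 at -76. The Klra6 and Klra7 windows shared an identical run of 30 bases around the match (tttcctctttttgCTTTGAtgaagaggagg). A further annotated Klra7 start, at chr6:130231688-130231937, held 1 match at -246. Of all 32851 promoter windows of this length, 13.8% held CTTTGA and 3.21% held CTTTGAT, so a match is common, and it describes letters only.

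Libraries differed in depth. Members had a median of 6175 UMIs per barcode in the combination library, 4956 in anti-PD-1, 7135 in PBS 1 and 8637.5 in PBS 2, and their summed counts ran from 1503354 to 2773137 UMIs per library. Members were deeper than double-negative T cells without a Ly49 UMI (Ly49- double-negative T cells; medians 4447, 3462, 4991 and 6003 in the same libraries) and shallower than CD8 T cells with one (Ly49+ CD8 T cells; 8406, 7043.5, 9889 and 10862). The same barcode sequence occurred in PBS 2 and anti-PD-1 1778 times and in PBS 1 and anti-PD-1 1255 times. Only 7 members had a barcode that also occurred in another library, and 0 of those were members there.

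Ly49 transcripts were common among double-negative T cells and rare among other T cells. Members made up 37.4% of double-negative T cells in the combination library (exact 95% interval 34.5 to 40.4%), 28.0% in anti-PD-1 (25.3 to 30.7%), 37.9% in PBS 1 (34.2 to 41.7%) and 32.8% in PBS 2 (28.5 to 37.2%). The anti-PD-1 share was the lowest, as was its median depth, and with 1 library in each treated arm the difference was not tested. A UMI of the same 3 genes was found in 6.31 to 9.11% of CD8 T cells, 1.32 to 2.94% of CD4 T cells and 1.96 to 5.90% of Foxp3+ T cells over the 4 libraries. NK cells, taken as barcodes with Ncr1 and no CD3 UMI, had it in 41.5 to 51.5%. Macrophage barcodes, also chosen without a CD3 UMI, should lack these genes and were deeper (medians 9373 to 20325 UMIs). They had it in 1.34 to 3.39%, taken here as a background level whose source was not tested. In each library the share among double-negative T cells lay above that level, with intervals that did not overlap. When every cell was thinned to 1000 UMIs the mean share over libraries was 16.2%. Intervals here and below cover counting error only.

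**Figure D1:**
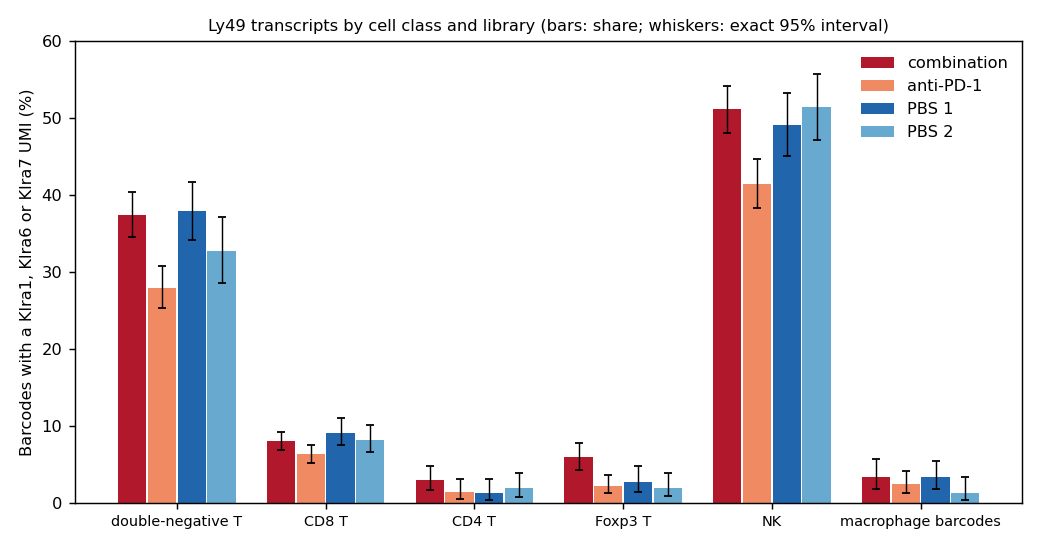
Share of barcodes with a UMI of Klra1, Klra6 or Klra7 (y axis, %) in 6 cell classes, 1 bar per library, with exact 95% intervals. Double-negative T cells (28.0 to 37.9%) stand between NK cells (41.5 to 51.5%) and the other T cell classes, which all stay under 10%.

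Pde2a, a phosphodiesterase by which these cells had been picked out together with Trdc and Lef1, was found in 78.7, 69.5, 75.7 and 83.8% of members in the combination, anti-PD-1, PBS 1 and PBS 2 libraries, although 98.3% of the end of its transcript is shared with an overlapping gene model. The membership genes are a description of the choice and not a result. Klra7 was found in 66.8, 60.4, 70.1 and 64.3% of members in the combination, anti-PD-1, PBS 1 and PBS 2 libraries, Klra1 in 56.9, 49.4, 49.4 and 52.6%, and Klra6 in 38.4, 36.7, 42.2 and 37.7%. All 3 were found in 11.9, 7.47, 12 and 8.44% of members in the same libraries. The members had a median of 4 Ly49 UMIs in 3 libraries and 2 in anti-PD-1, with a maximum of 34. At the edge of the rule, 249 members had exactly 1 Ly49 UMI, 197 had 2 and 671 had 3 or more. By CD3 genes, 37 members sat at the limit of 2 UMIs and 1033 had 4 or more, while 79 barcodes missed only that limit. A further 142 barcodes missed only by 1 Ncr1 UMI, and 210 by 2 or more. Among all Ly49+ T cells past the other limits, 139 had 1 CD8 UMI, 80 had 2 and 236 had 3 or more, so some CD8 T cells with no captured CD8 molecule can stand among the members.

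The Ly49 genes outside the rule set the members apart from NK cells. Klra8 (Ly49H, an activating receptor) was found in 2.72, 2.27, 3.19 and 3.25% of members, against 45.2, 43.0, 38.6 and 50.2% of NK cells, in the combination, anti-PD-1, PBS 1 and PBS 2 libraries. Klra4 (Ly49D, also activating) was found in 0.797 to 2.23% of members and 32.5 to 42.8% of NK cells. In macrophage barcodes the shares were 1.67 to 3.13% for Klra8 and 2.68 to 5.74% for Klra4, so both genes were at background in the members. Klra9 (16.6 to 25.3% of members) and Klra3 (10.6 to 13.0%) lay above the macrophage shares (1.67 to 2.61% and 0.994 to 3.39%). Sequence overlap limits these values: 46.6% of the 31-base words in the last 500 bases of Klra7 transcripts also occur in another gene, as do 70.2% for Klra9 and 64.0% for Klra3, while Klra1 and Klra6 share 11.9% and 11.1%.

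Most members carried an alpha-beta receptor transcript. Trac, the alpha constant chain (chr14:54220521-54224206, plus strand), was found in 68.8% of members in the combination library (64.0 to 73.3%), 57.8% in anti-PD-1 (52.1 to 63.4%), 75.7% in PBS 1 (69.9 to 80.9%) and 73.4% in PBS 2 (65.7 to 80.2%). The same share was 8.90 to 12.7% in NK cells and 2.82 to 4.44% in macrophage barcodes. Both groups were chosen to hold no CD3 UMI, so these shares can understate the level of stray T cell RNA. Trbc2, a beta constant chain, was found in 92.6, 88.0, 94.4 and 95.5% of members in the combination, anti-PD-1, PBS 1 and PBS 2 libraries. It was also found in 46.3 to 48.4% of NK cells, so Trbc2 alone does not show a receptor. Trdc, the delta constant chain (chr14:54142851-54148868, plus strand), was found in 22.3% of members in the combination library (18.3 to 26.7%), 18.2% in anti-PD-1 (14.0 to 23.0%), 14.3% in PBS 1 (10.3 to 19.3%) and 20.8% in PBS 2 (14.7 to 28.0%). In NK cells the shares were 18.9, 19.8, 23.8 and 24.2% in the same libraries, lower than in members in the combination library and higher in the other 3. The amount per positive cell was different: a member with Trdc held on average 4.10, 3.71, 5.03 and 6.59 UMIs of it, and an NK cell with Trdc held 1.41, 1.38, 1.41 and 1.54, in the combination, anti-PD-1, PBS 1 and PBS 2 libraries.

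Pooled over libraries, 704 members (63.0%) had Trac without Trdc, 159 (14.2%) had Trdc without Trac, 55 (4.92%) had both and 199 (17.8%) had neither. In Ly49- double-negative T cells the same classes made up 57.2, 17.0, 5.51 and 20.3%, in Ly49+ CD8 T cells 89.7, 0.879, 1.98 and 7.47%, and in NK cells 8.16, 18.3, 2.64 and 70.9%. The members with neither were shallower, with a median of 5374 UMIs against 6706.5 for those with Trac alone, and their share was highest in the shallowest library (27.3% in anti-PD-1, and 15.1, 14.7 and 11% in combination, PBS 1 and PBS 2). The members with neither still had Trbc2 in 85.4% and Ikzf2 in 76.9%.

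**Figure D2:**
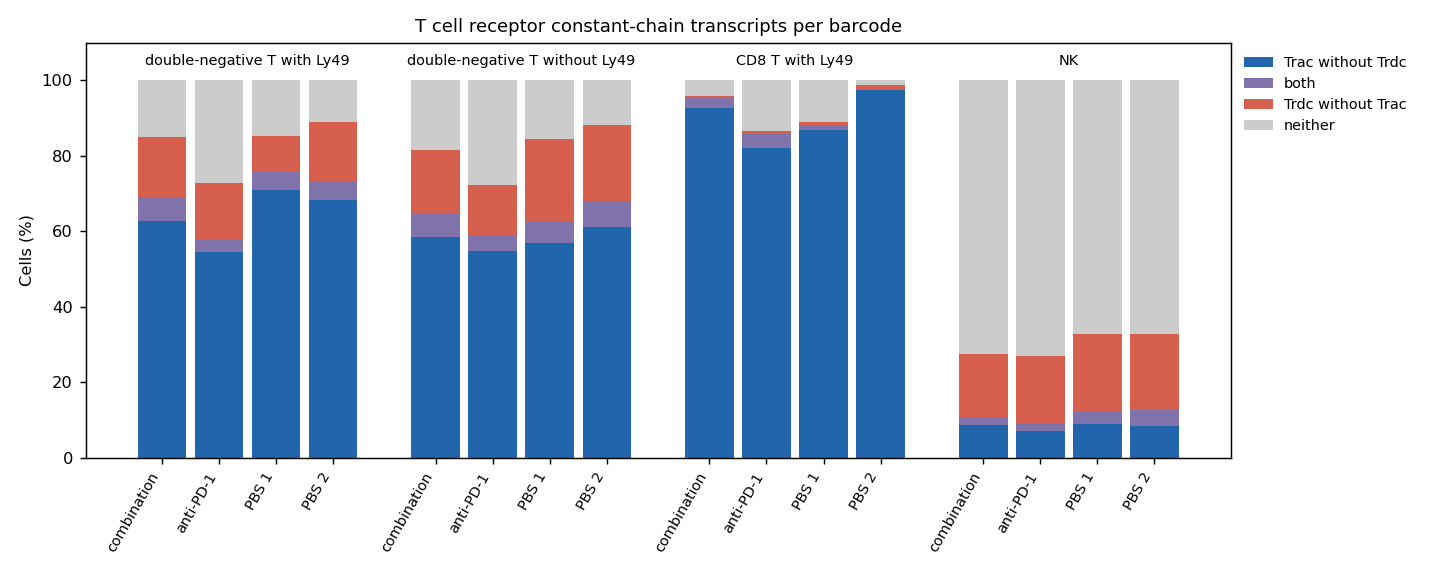
Share of cells (y axis, %) by detected receptor constant chains, for 4 cell groups with 1 stacked bar per library. Cells with Trac and no Trdc make up 54.5 to 70.9% of Ly49+ double-negative T cells, and cells with Trdc and no Trac 9.56 to 16.1%.

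A limit of 3 UMIs, set after those shares were seen, separated the gamma-delta members more firmly. At least 3 Trdc UMIs with no Trac were found in 10.6, 9.09, 7.57 and 11% of members in the combination, anti-PD-1, PBS 1 and PBS 2 libraries, 107 cells in all (9.58%). The pooled share was 11.8% in Ly49- double-negative T cells, 0.659% in Ly49+ CD8 T cells and 1.5% in NK cells. Of those 107 members, 82.2% also carried a gamma constant chain (Tcrg-C1, Tcrg-C2 or Tcrg-C4), against 0.0% of the 47 NK cells that met the same Trdc limit. A gamma constant chain was also found in 29.7% of the 330 members with at least 3 Trac UMIs and no Trdc, so it is not limited to cells with Trdc. At least 3 Trac UMIs with no Trdc were found in 28.7, 18.2, 38.6 and 39.6% of members in the same libraries, 330 cells in all. Of the NK cells, which were chosen without CD3 UMIs, 2 of 3138 met this limit. The members thus held both gamma-delta and alpha-beta cells by these limits, with the rest not resolved at this depth. Among gamma chains, Tcrg-C4 was found in 22.5, 20.5, 19.5 and 29.2% of members in the combination, anti-PD-1, PBS 1 and PBS 2 libraries, and in 7.56 to 10.9% of NK cells. Tcrg-C1 and Tcrg-C2 share 48.5 and 49.6% of their end sequence with other genes and cannot be told apart well.

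Between the receptor classes, cells with Trdc alone and cells with Trac alone carried the same Ly49 genes in different shares. Klra6 was found in 27.0% of the 159 Trdc members and 42.3% of the 704 Trac members, Klra7 in 54.7% and 67.5%, and Klra1 in 53.5% and 52.0%. Tyrobp (DAP12, an adaptor of activating NK receptors) was found in 54.7% of Trdc members and 35.7% of Trac members. Klrb1c (NK1.1) stood at 55.3% of Trdc members and 44.5% of Trac members, and Zbtb16 at 32.1% and 18.0%. Lef1 was less frequent in the Trdc members (58.5%) than in the Trac members (75.3%). Fcer1g, a signalling adaptor, was found in 85.5% of Trdc members and 80.1% of Trac members, a high share in both. These are pooled shares with no test, and median depth was 5760 UMIs in the Trdc members.

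Transcripts of the invariant NKT cell were scarce. The Trav11 gene family was found in 0 of 404 members in the combination library, which allows a share of up to 0.743%, in 1 of 308 in anti-PD-1, in 2 of 251 in PBS 1 and in 2 of 154 in PBS 2. Variable segments were rarely captured, since only 349 of 1117 members had any Trbv transcript, so at this depth a low count limits the share of cells with a UMI and not of cells using the segment. Zbtb16 was found in 20.3% of members in the combination library (16.5 to 24.6%), 19.5% in anti-PD-1 (15.2 to 24.4%), 19.1% in PBS 1 (14.4 to 24.5%) and 24.7% in PBS 2 (18.1 to 32.3%). NK cells had Zbtb16 in 12.2 to 18.6% and macrophage barcodes in 5.17 to 11.7%. Of the 349 members, 14.6% had Trbv12-2, 10.3% Trbv12-1, 8.88% Trbv13-2, 8.88% Trbv29 and 3.15% Trbv1. The last 3 segments are those that mouse invariant NKT cells are known to use most. In the 202 Ly49+ CD8 T cells with any Trbv transcript the same 3 stood at 5.45, 6.44 and 6.93%. The beta chains of the members were spread over many segments.

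Naive-type transcripts were frequent but incomplete. Lef1, a marker by which these cells had been picked out, was found in 72.8% of members in the combination library (68.2 to 77.1%), 61.7% in anti-PD-1 (56.0 to 67.1%), 76.5% in PBS 1 (70.8 to 81.6%) and 77.3% in PBS 2 (69.8 to 83.6%). Tcf7 was found in 64.1, 51.6, 64.1 and 70.8% of members, in the same order of libraries. Lef1 was also found in 36.5 to 53.1% of NK cells and 3.38 to 4.70% of macrophage barcodes. Ccr7, which naive T cells need to enter lymph nodes, was found in only 6.19, 5.84, 2.39 and 8.44% of members, against 21.6, 17.9, 30.3 and 26.0% of Ly49+ CD8 T cells, in the combination, anti-PD-1, PBS 1 and PBS 2 libraries. Genes of experienced cells were carried by most members: Cd44 by 63.6 to 82.5%, and Il2rb (CD122, the receptor chain shared by IL-2 and IL-15) by 92.5 to 98.8%. Gzmb (granzyme B) was found in 41.2, 43.7, 41.7 and 47.1% of members with Lef1 and in 40.9, 39.0, 47.5 and 62.9% of members without it, in the combination, anti-PD-1, PBS 1 and PBS 2 libraries. Macrophage barcodes had Gzmb in 7.53 to 14.4%. Lef1+ members thus carried the granzyme in shares near those of other members in 3 libraries, and in a lower share in PBS 2.

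**Figure D3:**
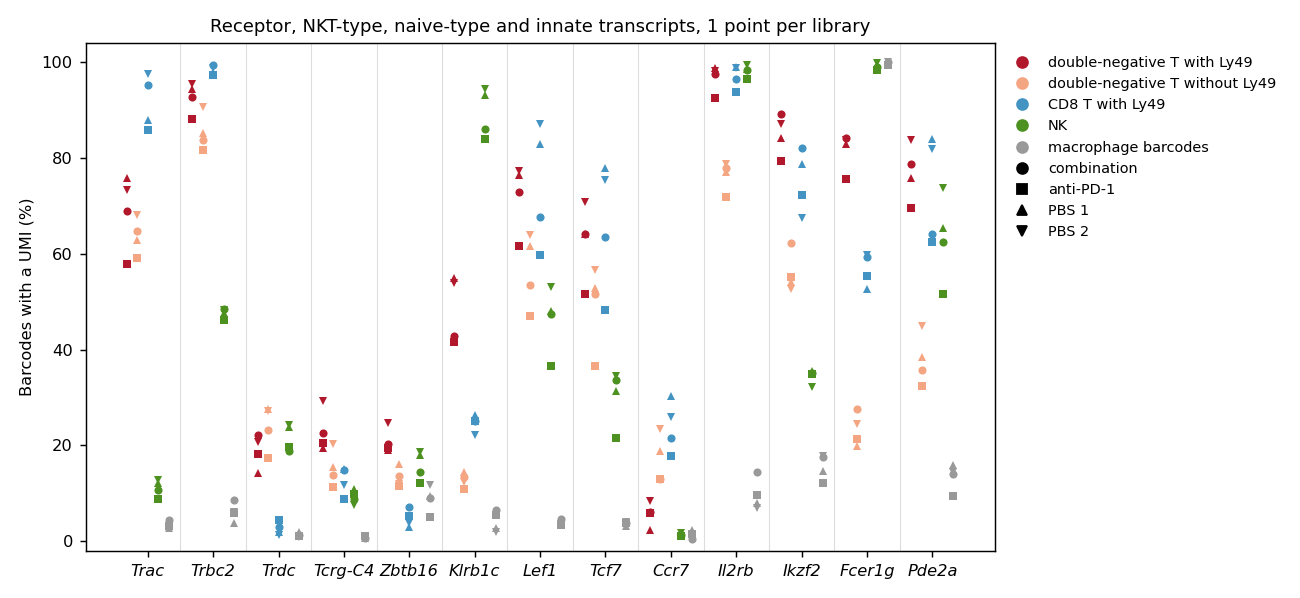
Share of barcodes with a UMI (y axis, %) of 13 genes in 5 cell groups, 1 point per library. In Ly49+ double-negative T cells Lef1 lies at 61.7 to 77.3% and Il2rb at 92.5 to 98.8%, while Ccr7 lies at 2.39 to 8.44%, below its 17.9 to 30.3% in Ly49+ CD8 T cells.

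Members were next compared with Ly49- double-negative T cells of the same libraries. This asks what else goes with Ly49 among T cell barcodes with no CD4, CD8 or Foxp3 UMI. The Ly49- cells were shallower, so T cells of other classes with no captured CD4, CD8 or Foxp3 molecule can stand among them. Only 1.32 to 2.94% of CD4 T cells and 1.96 to 5.90% of Foxp3+ T cells had a Ly49 UMI. Such cells would thus fall mostly on the Ly49- side, and their part in the genes lower in members was not tested. UMIs were summed per cell group and library, and edgeR's quasi-likelihood test with the library as a block was run on all genes, with Benjamini-Hochberg adjustment. It called 742 of 10236 genes higher in members (7.25%) and 757 lower (7.4%) at an adjusted p under 0.05. DESeq2 called 413 higher and 385 lower, and without each gene's top barcode 8.87% of 9672 genes were higher and 8.6% lower, 17.5% in all against 14.6%. Values below are CPM (UMIs as a share of the library sum, scaled by TMM), and fold changes are log2 with their standard error (SE). The median log2 fold change of all genes was 0.00. Genes nearly absent from a group passed the low-count filter only through the other group, so they could be called in that direction only.

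NK-type receptors and their adaptors were higher in members. Among lectin receptors outside the Ly49 family, Klrb1a and Klrg1 could each be called in a single direction only, as given below. No count or median over that list is therefore given. Klrb1a (NKR-P1A) stood at 13.7, 22.7, 15.8 and 22.4 CPM in members, against 3.23, 3.34, 2.20 and 0.854 CPM in Ly49- double-negative T cells, in the combination, anti-PD-1, PBS 1 and PBS 2 libraries (log2 fold change 2.84). It passed the low-count filter only through the members, so no p is given. Klre1, a partner of inhibitory lectin receptors, stood at 204, 209, 228 and 213 CPM in members against 63.3, 56.2, 51.8 and 41.4 CPM (1.99, SE 0.10, edgeR adjusted p 1.31e-11). The groups of Klre1 did not overlap. Klrb1c (1.58), Klrc2 (NKG2C, 1.14), Klrd1 (CD94, 1.13) and Klrk1 (NKG2D, 1.13) were higher as well. The exception was Klrg1, a receptor of late effector cells, at 0 to 4.54 CPM in members against 16.6 to 36.8 CPM (-4.06). It passed the low-count filter only through the Ly49- cells, so no p is given. Of 13 NK identity genes 8 were higher and 0 lower, with a median of 1.21. Fcer1g stood at 496, 612, 454 and 456 CPM in members against 164, 148, 119 and 88.8 CPM in Ly49- double-negative T cells, in the combination, anti-PD-1, PBS 1 and PBS 2 libraries (1.96, SE 0.10, edgeR adjusted p 4.53e-08). Cd244a (2B4, 1.91), Itga2 (CD49b, 1.35) and the transcription factor Eomes (1.21) moved the same way. Tyrobp (1.81, edgeR adjusted p 0.0438) lost its call without PBS 1 and without anti-PD-1. NK cells carry these genes too, at higher levels: Fcer1g was found in 98.4 to 99.8% of NK cells and 75.6 to 84.2% of members. The summed NK identity list stood at 1479 to 2165 CPM in members and 546 to 967 in Ly49- double-negative T cells. The part of NK RNA in these differences was not tested.

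Genes of the IL-15-dependent, memory-type CD8 state known to go with Ly49 were mostly higher in members. Of 10 tested genes of this list 6 were higher and 1 lower, with a median of 0.62. Il2rb stood at 786, 899, 728 and 782 CPM in members against 494, 533, 534 and 425 CPM in Ly49- double-negative T cells, in the combination, anti-PD-1, PBS 1 and PBS 2 libraries (0.69, SE 0.07, edgeR adjusted p 1.2e-07). Ly6c2 (1.03), Klrk1 (1.13), Eomes (1.21) and Tbx21 (T-bet, 0.40) were higher as well. Il15ra was the gene that was lower (-1.20). Genes of the thymic precursors of CD8-alpha-alpha intestinal T cells were split, 6 of 12 higher and 4 lower. Cd160, an inhibitory and adhesion receptor, stood at 113 to 126 CPM in members against 24.6 to 45.8 CPM (1.87, SE 0.12, edgeR adjusted p 9.06e-10). Ikzf2 (Helios), a factor of self-reactive T cells, was 0.72 higher (edgeR adjusted p 0.0393) and lost its call without PBS 1 and without the combination. Itgae (CD103, -2.22), Pdcd1 (PD-1, -1.68), Cd200 (-2.65) and Nr4a1 (-0.39) were lower. Cd200 had 5, 1, 2 and 1 UMIs in combination, anti-PD-1, PBS 1 and PBS 2 members. It passed the low-count filter only through the Ly49- cells and could count only as lower.

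Cytotoxic genes moved only in part. Of 15 tested, 5 were higher and 1 lower, with a median of 0.34. Xcl1, a chemokine that attracts cross-presenting dendritic cells, stood at 441, 389, 488 and 389 CPM in members against 130, 133, 144 and 116 CPM in Ly49- double-negative T cells, in the combination, anti-PD-1, PBS 1 and PBS 2 libraries (1.71, SE 0.07, edgeR adjusted p 2.44e-13). Ctsw (0.93), Ccl5 (0.65), Nkg7 (0.58) and Fasl (0.34) were higher. Gzmk was lower, at 0 to 3.30 CPM in members against 11.4 to 17.9 CPM. It passed the low-count filter only through the Ly49- cells and could count only as lower. Gzmb stood at 230, 272, 286 and 268 CPM in members and 382, 400, 285 and 196 CPM in Ly49- double-negative T cells of the same libraries (-0.24, SE 0.26, edgeR adjusted p 0.688). Its groups overlapped. Gzma (edgeR adjusted p 0.0582) and perforin (Prf1, 0.0804) did not pass the test.

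Genes of the IL-17 type of gamma-delta cell were lower in the members, several of them at or near 0. Of 11 genes of that list in the files 6 passed the low-count filter, some of them only through the Ly49- cells, so no count or median over the list is given. Il23r, the IL-23 receptor, had 4 UMIs in 1 combination member and 0 UMIs in the members of the other 3 libraries, against 34.0, 17.1, 43.0 and 15.8 CPM in Ly49- double-negative T cells of the combination, anti-PD-1, PBS 1 and PBS 2 libraries. It passed the low-count filter only through the Ly49- cells, so no p is given. Il1r1 had 0 UMIs in combination members and 1 UMI in each other library, against 16.6 to 33.4 CPM. Blk, a kinase of these cells, had 2 UMIs, both in PBS 2 members. Cd163l1 (-2.54) and Maf (-2.58) were lower but present. Of the gamma-delta receptor genes left after Trdc was set aside, Trgv2 was higher (0.45), Tcrg-C1 was lower (-0.63) and 4 did not pass the test. Trdv4 (-2.86) had only 16, 3, 4 and 2 UMIs in combination, anti-PD-1, PBS 1 and PBS 2 members. It passed the low-count filter mainly through the Ly49- cells and could hardly be called higher, so it is not counted as lower. The Tcrg-C1 call was lost without the combination library. Trac (-0.16, edgeR adjusted p 0.168) and Trbc1 (0.00, edgeR adjusted p 0.991) did not pass it either.

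The NKT-type list was mostly lower, but not its defining factor. Of 9 tested genes, 6 were lower and 1 higher (Tbx21, T-bet, 0.40), with a median of -1.16. Klrb1c, also a marker of NKT cells, was counted with the lectin receptors and was higher, as given above. Slamf1 (-2.67), Icos (-2.01), Rora (-1.29), Cxcr6 (-1.26), Slamf6 (-1.16) and Gata3 (-0.60) were lower. Zbtb16 stood at 97.4, 122, 103 and 148 CPM in members and 137, 126, 132 and 95.2 CPM in Ly49- double-negative T cells, in the combination, anti-PD-1, PBS 1 and PBS 2 libraries (-0.09, SE 0.21, edgeR adjusted p 0.851). The groups overlapped, although more members had a UMI of it (19.1 to 24.7% against 11.6 to 16.1%).

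The naive-type list was split. Of 12 tested genes 3 were higher and 6 lower, with a median of -0.42. The chromatin organiser Satb1 (0.24) and the quiescence factor Bach2 (0.23) were among the higher ones, but both calls were lost without anti-PD-1 and without the combination. S1pr1 (-0.73), Il7r (-0.50), Klf2 (-0.36), Ccr9 (-1.29), Dapl1 (-1.59) and Actn1 (-0.48) were lower. Ccr9 had only 8, 3, 13 and 9 UMIs in combination, anti-PD-1, PBS 1 and PBS 2 members, close to the low-count filter. Tcf7 did not pass the test (-0.03, SE 0.07, edgeR adjusted p 0.864).

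Several checkpoint and costimulatory receptors were lower in members. In the checkpoint and exhaustion list, Havcr2 had 15, 6, 2 and 2 UMIs in combination, anti-PD-1, PBS 1 and PBS 2 members. It passed the low-count filter only through the Ly49- cells and could enter only as lower, so no count or median over this list is quoted. Ctla4 stood at 75.4, 43.4, 24.9 and 41.6 CPM in members against 407, 313, 275 and 303 CPM in Ly49- double-negative T cells, in the combination, anti-PD-1, PBS 1 and PBS 2 libraries (-2.81, SE 0.13, edgeR adjusted p 5.38e-08). Havcr2 (TIM-3, -3.15), Lag3 (-2.22), Pdcd1 (-1.68), Entpd1 (CD39, -1.51), Tigit (-0.70) and Tox (-0.26) were also lower. Cd244a, Nr4a2 (0.96) and Nr4a3 (0.53), all on this list, were higher. For the same reason, shown by Tnfrsf25 below, no count or median over the TNF-family costimulatory list is quoted. Tnfrsf4 (OX40) stood at 10.1, 24.6, 5.60 and 6.60 CPM in members against 208, 322, 173 and 103 CPM in the same libraries (-4.17, SE 0.14, edgeR adjusted p 1.92e-14). Tnfrsf25, the receptor of TL1A, stood at 1.44, 0.648, 1.02 and 1.98 CPM in members against 5.93, 7.02, 7.03 and 5.55 CPM in Ly49- double-negative T cells, in the combination, anti-PD-1, PBS 1 and PBS 2 libraries (-2.27). The members held 4, 1, 2 and 3 UMIs of it in the same libraries. It passed the low-count filter only through the Ly49- cells, so no p is given. Of 10 CD3 signalling genes 5 were lower and 1 higher. The lower ones included Cd5 (-1.69), a marker that follows the strength of receptor signalling, and Cd6 (-1.24), Lat (-0.95) and Cd28 (-0.58). Lck was higher (0.24), a call lost without PBS 1 and without the combination. Of 15 homing genes 3 were higher and 7 lower, with Itga1 (CD49a, 1.20) higher and Ccr2 (-1.72) lower. Of 23 interferon-gamma response genes 7 were lower and 0 higher, led by Iigp1 (-1.91), and of 19 type I interferon genes 6 were lower and 1 higher. Beside these, the summed macrophage list stood at 186, 144, 160 and 133 CPM in members and 267, 228, 243 and 198 CPM in Ly49- double-negative T cells, in the combination, anti-PD-1, PBS 1 and PBS 2 libraries. The handling-stress list stood at 5275, 4526, 5194 and 4948 CPM in members and 5955, 4988, 5845 and 5725 CPM in Ly49- double-negative T cells, with 4 of 20 genes lower and 0 higher. Their part in the interferon calls was not tested.

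All called genes outside the rule were then ranked, with the list genes already given above included. The highest fold changes in members were those of Klrb1a, Cadps2 (2.78), Sh2d1b1 (EAT-2, an NK adaptor, 2.51), Aoah (2.29), Olfm1 (2.28), Car2 (2.09), Klre1, Dscam (1.98), Fcer1g and Cd244a. Cadps2, Sh2d1b1 and Olfm1 had at most 47 UMIs in the members of any library. At these folds they, like Klrb1a, may have passed the low-count filter only through the members and could then rank only as higher. Aoah, which inactivates endotoxin, stood at 144, 115, 53.9 and 135 CPM in members against 41.0, 20.1, 15.8 and 12.8 CPM in Ly49- double-negative T cells, in the combination, anti-PD-1, PBS 1 and PBS 2 libraries. The genes with the lowest fold changes were Penk, Il1r1, Il23r, Blk, Itgb8, Galnt9, Adam12, Ppp1r14c, Tnfrsf4 and Klrg1. All of these but Tnfrsf4 passed the low-count filter only through the Ly49- cells. Penk, which encodes proenkephalin, had 1 UMI in anti-PD-1 members, 1 UMI in PBS 2 members and 0 UMIs in the other members, against 8.35, 37.4, 38.2 and 16.2 CPM in Ly49- double-negative T cells. Itgb8, an integrin chain that activates TGF-beta, stood at 0.648 to 1.53 CPM in members and 15.8 to 37.7 CPM in Ly49- double-negative T cells.

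**Figure D4:**
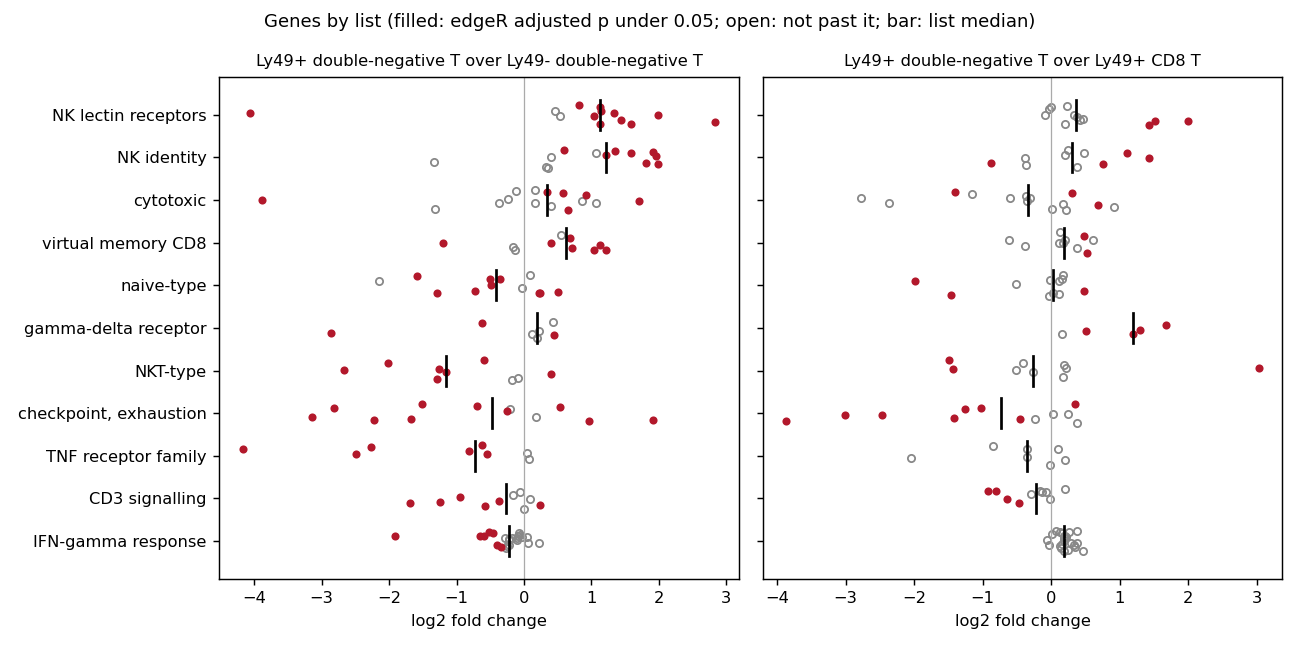
Log2 fold change (x axis) of each tested gene, by gene list (y axis), for Ly49+ over Ly49- double-negative T cells (left) and Ly49+ double-negative over Ly49+ CD8 T cells (right). Filled points passed the test, open points did not, and bars are list medians, such as 1.19 for gamma-delta receptor genes on the right. Genes nearly absent from a group could enter in a single direction only, which can also move the medians.

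The second comparison set members against 455 Ly49+ CD8 T cells (167, 112, 99 and 77 in the combination, anti-PD-1, PBS 1 and PBS 2 libraries), which share the Ly49 choice and differ by CD8. The same test called 218 of 9136 genes higher in members (2.39%) and 134 lower (1.47%), and DESeq2 called 79 and 66. Without each gene's top barcode 3.54% of 8565 genes were higher and 2.64% lower, 6.18% in all against 3.85%. The median log2 fold change of all genes was -0.02. As above, genes nearly absent from a group could be called in a single direction only. Fewer genes were called than against Ly49- double-negative T cells, with fewer cells in the compared group, so the counts are not set against each other.

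Gamma-delta receptor genes were higher in members, 4 of 5 tested, with a median of 1.19. Tcrg-C4 stood at 51.7, 55.6, 39.6 and 60.7 CPM in members against 22.6, 25.1, 20.7 and 14.3 CPM in Ly49+ CD8 T cells, in the combination, anti-PD-1, PBS 1 and PBS 2 libraries (1.29, SE 0.18, edgeR adjusted p 0.000371). Tcrg-V1 (1.67), Tcrg-C1 (1.19) and Trgv2 (0.50) were higher too. The Tcrg-C1 call was lost without PBS 1. Trdj1, a delta joining segment, stood at 14.2, 16.6, 7.51 and 12.4 CPM in members against 1.19, 1.14, 1.80 and 1.10 CPM in the same libraries (3.18). It passed the low-count filter only through the members, so no p is given. Trac was lower (-0.46, SE 0.10, edgeR adjusted p 0.0157), at 248 to 317 CPM in members and 326 to 426 CPM in Ly49+ CD8 T cells. Zbtb16 was higher, at 95.5, 120, 101 and 146 CPM in members against 25, 9.13, 5.40 and 11 CPM (3.03, SE 0.38, edgeR adjusted p 0.0219). Its groups did not overlap, but the call was lost without PBS 2 and without anti-PD-1. Of the other NKT-type genes Slamf1 (-1.49) and Cxcr6 (-1.44) were lower and 6 did not pass the test.

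Some innate receptors were higher in members than in Ly49+ CD8 T cells. Among the tested lectin receptors Klrb1c (1.43), Klrb1a (1.99) and Klrb1f (1.51) were called higher. Klrb1a had 38, 35, 31 and 34 UMIs in combination, anti-PD-1, PBS 1 and PBS 2 members, and Klrb1f 46, 27, 27 and 26. At these folds both may have passed the low-count filter only through the members and could then only be higher. No count or median over that list is therefore given. Klrb1c stood at 128, 153, 149 and 138 CPM in members against 45.8, 74.2, 54.0 and 39.6 CPM in Ly49+ CD8 T cells, in the combination, anti-PD-1, PBS 1 and PBS 2 libraries (SE 0.13, edgeR adjusted p 1.66e-06). Tyrobp (1.10) and Fcer1g (0.75) were higher, and Irf8 was lower (-0.88). Of 10 genes of the memory-type CD8 list 2 were higher, Ikzf2 (0.52) and Ly6c2 (0.47), and 0 lower, so 8 did not pass the test, among them Il2rb (0.20, edgeR adjusted p 0.151) and Eomes (-0.38, edgeR adjusted p 0.181). Of 10 tested genes of the CD8-alpha-alpha precursor list 5 were higher and 1 lower.

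Several checkpoint genes were lower in members than in Ly49+ CD8 T cells, and 1 gene of that list was higher. Havcr2 passed the low-count filter only through the CD8 T cells and could enter only as lower, so no list median is quoted. Pdcd1 stood at 13.8, 17.9, 7.51 and 9.14 CPM in members against 71.3, 84.5, 44.1 and 67.2 CPM in Ly49+ CD8 T cells, in the combination, anti-PD-1, PBS 1 and PBS 2 libraries (-2.46, SE 0.17, edgeR adjusted p 9.91e-08). Havcr2 (-3.86), Lag3 (-3.0), Ctla4 (-1.26), Entpd1 (-1.02), Rgs16 (-1.42) and Tox (-0.45) were lower. Prf1 was lower (-1.40, edgeR adjusted p 0.000994), and Xcl1 (0.68) and Ccl5 (0.31) were higher, while Gzmb did not pass the test (-0.35, edgeR adjusted p 0.698). Of 11 naive-type genes, Ccr7 (-1.99) and Dapl1 (-1.46) were lower and Il7r (0.48) was higher. Ccr7 stood at 21.9, 16, 5.51 and 10.4 CPM in members against 54.1, 46.8, 63.9 and 48.5 CPM in the same libraries (edgeR adjusted p 0.0179), a call lost without PBS 2 and without anti-PD-1. Tcf7 (-0.03, edgeR adjusted p 0.932) did not pass. Type I interferon genes were higher in 4 of 18 tested (Ifit3b 1.43, Oasl1 0.87, Irf7 0.61, Bst2 0.46) and lower in 0, and none of 23 interferon-gamma genes passed, with an all-gene background of 3.85% called. Of 20 handling-stress genes 5 were higher (Dusp1 0.68, Btg2 0.51, Fos 0.48, Fosb 0.46, Junb 0.37), and that list summed to 4526 to 5275 CPM in members and 4130 to 4683 in Ly49+ CD8 T cells. Its part in the other calls was not tested.

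Ranked in the same way, with list genes already given above included, the highest fold changes over Ly49+ CD8 T cells were those of Trdj1, Zbtb16, Cxcl9, Tgfa (2.68), Trf (transferrin, 2.27), Galntl6 (2.26), Cap2 (2.22), Pde5a (2.06), Plcb1 (2.02) and Klrb1a. Tgfa, Cap2, Pde5a and Klrb1a had at most 71 UMIs in the members of any library. At these folds they may have passed the low-count filter only through the members and could then rank only as higher. Trf stood at 59.8, 65.1, 47.6 and 45.0 CPM in members against 8.91, 13.7, 6.30 and 18.7 CPM in Ly49+ CD8 T cells, in the combination, anti-PD-1, PBS 1 and PBS 2 libraries (SE 0.23, edgeR adjusted p 2.24e-05). The Cxcl9 call rested on PBS 2, where 185 of 189 UMIs came from 1 barcode. Plcb1 had 53 of 62, 44 of 50, 31 of 34 and 39 of 43 UMIs in 1 barcode of the combination, anti-PD-1, PBS 1 and PBS 2 members, and Galntl6 had 34 of 42, 14 of 19, 79 of 88 and 86 of 92, so both describe a few barcodes. Pde5a had 12 of 24 UMIs in 1 barcode in PBS 1 and 7 of 10 in PBS 2. The lowest were those of Exph5, Slc17a6, Gpm6b (-4.04), Havcr2, Lag3, Galnt3 (-2.69), Smyd1 (-2.63), Pdcd1, Kif15 (-2.46) and Crybg3 (-2.41). All of these but Pdcd1 passed the low-count filter only through the Ly49+ CD8 T cells. Exph5 had 1 UMI in combination members, 1 in anti-PD-1 members and 0 in the members of both saline libraries, against 6.61 to 20.5 CPM in Ly49+ CD8 T cells.

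Treatment was tested last, in members alone, with 1 library in each treated arm against the 2 saline libraries. Only the saline pair gives a spread, with 1 residual degree of freedom, and the treated library is assumed to vary like it. Both comparisons share the saline libraries. In sums over cells of a library, more cells with a transcript and more transcript per cell cannot be told apart. In members of the combination library edgeR called 55 of 10428 genes higher (0.527%) and 36 lower (0.345%) than in saline, and in members of the anti-PD-1 library 31 higher (0.297%) and 16 lower (0.153%). The edgeR calls make up 0.873% of genes for the combination and 0.451% for anti-PD-1. At an unadjusted p under 0.05 edgeR called 831 and 895 genes. DESeq2 called 5 genes higher and 0 lower for the combination, and 0 for anti-PD-1 (83 and 80 at an unadjusted p under 0.05). Among members with at least 2 Ly49 UMIs, edgeR called 20 genes higher and 26 lower for anti-PD-1, with 16 of these 46 shared with the 47, so the balance of directions for anti-PD-1 turned. Many calls came from 1 barcode each: 29 of the 55 higher combination genes and 11 of the 31 higher anti-PD-1 genes had 50% or more of their UMIs in a single barcode of the library. When the barcode with the most UMIs was removed from each library for each gene, an alternative chosen after seeing the data, 22 of the 55 and 18 of the 31 were still called, while 24 of the 55 and 4 of the 31 then fell under the low-count filter and were not tested. Of the lower genes, 10 of 36 for the combination and 9 of 16 for anti-PD-1 had 50% or more of their saline UMIs in the top barcodes of PBS 1 and PBS 2 together. Of all lower genes 23 and 5 were still called, and 8 in each comparison were not tested. In that setting 0.289% of 9684 genes were higher and 0.289% lower for the combination, and 0.279% were higher and 0.0723% lower for anti-PD-1, 0.578% and 0.351% in all.

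Some genes named here lie outside the fixed lists and the 10 highest and lowest (Cebpb, Hdac9, Slc15a2, Plac8, Stmn1, Mcm3, Ly6a, Lars2, Ctla2a, Lgals1, Pfn1 and Immp2l), and were chosen after their values were seen. Of the named genes that edgeR called, DESeq2 called 5 of 35 for the combination and 0 of 30 for anti-PD-1, so the adjusted p-values below rest on the assumption that a treated library varies like the saline pair. Among genes still called without the top barcodes, Ctla4 stood at 73.5 CPM in combination, 42.5 in anti-PD-1, 24.6 in PBS 1 and 40.9 in PBS 2 (log2 fold change of combination over saline 1.19, SE 0.23, edgeR adjusted p 0.000125). It was found in 22.5% of combination members, 16.2% of anti-PD-1 members, 12.7% of PBS 1 members and 19.5% of PBS 2 members, and 45 of its 209 combination UMIs lay in 1 barcode. Iigp1, an interferon-gamma-induced GTPase, stood at 50.3, 38.1, 17.1 and 20.8 CPM in combination, anti-PD-1, PBS 1 and PBS 2 members (1.42, SE 0.28, edgeR adjusted p 0.000115). It was the single one of 23 interferon-gamma genes that passed. In members without other cells' markers neither gene was called (edgeR adjusted p 0.155 for Ctla4 and 0.152 for Iigp1), and Iigp1 was not called with at least 2 Ly49 UMIs (0.0512). Cebpb, a transcription factor of inflammation, stood at 194, 51.4, 90.9 and 63.6 CPM in the same libraries (1.31, SE 0.18, edgeR adjusted p 2.08e-10) and was found in 63.1% of combination members and 22.4, 39.8 and 40.3% of anti-PD-1, PBS 1 and PBS 2 members. Combination lay highest and anti-PD-1 lowest. Hdac9 (1.92), the peptide transporter gene Slc15a2 (2.70), Zfp36 (0.93) and Plac8 (0.69) were higher in combination members than in saline members. Stmn1 (-1.45), Mcm3 (-1.04), Hsp90aa1 (-0.71) and Ccdc62 (-2.53) were lower.

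Ly6a (Sca-1, an interferon-inducible surface protein) stood at 110 CPM in combination, 151 in anti-PD-1, 54.2 in PBS 1 and 61.7 in PBS 2 (log2 fold change of anti-PD-1 over saline 1.39, SE 0.20, edgeR adjusted p 3.51e-09). For the combination over saline its log2 fold change was 0.93 (SE 0.19, edgeR adjusted p 0.000554), and both treated libraries lay above both saline ones. Tyrobp stood at 323 CPM in anti-PD-1, against 167 in PBS 1 and 162 in PBS 2, with 176 in combination (0.97, SE 0.17, edgeR adjusted p 1.19e-05). Lars2 (0.81), Ctla2a (0.86) and Lgals1 (0.88) were higher and Pfn1 (profilin, -1.04) and Immp2l (-1.05) lower. Pfn1 stood at 933, 307, 730 and 529 CPM in combination, anti-PD-1, PBS 1 and PBS 2 members. Gzma (1.43) was called, but 341 of its 792 anti-PD-1 UMIs were in 1 barcode and without the top barcodes its log2 fold change was 1.40 with an edgeR adjusted p of 0.880. Ccl3 (2.08) had 66 of 107 UMIs in 1 barcode, and without the top barcodes a log2 fold change of 1.22 with an edgeR adjusted p of 0.205. Tnfrsf4 (2.00) had 13 of 38 UMIs in 1 barcode, and without the top barcodes a log2 fold change of 2.08 with an edgeR adjusted p of 0.0800. The folds of Gzma and Tnfrsf4 were thus about as large without those barcodes.

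By rule the 10 highest combination genes were Igkv19-93, Ighv3-6, Igha, Jchain, Iglv1, Igkc, Mcpt1, Igkv13-85, Mcpt2 and Mzb1, genes of plasma cells and mast cells. Igkc had 13060 UMIs in combination members, of which 13056 were in 1 barcode, and Igha 2723, of which 2721 were in 1 barcode. Mcpt1 had 88 UMIs, all in 1 barcode. The 10 highest anti-PD-1 genes were Il4, Il6, Slc4a4, Ptn, Il1rl1, Rbfox1, Hmga2, Asns, Wdr49 and Map1b. Il4 had 41 UMIs in 1 barcode of the anti-PD-1 library and Il6 18 in 1 barcode, with 0 of either in both saline libraries. The 10 lowest anti-PD-1 genes were S100a9, Mir99ahg, Dclk1, S100a8, Mmp16, Nav1, Galntl6, Foxp2, Hdgf and Dars, and the 10 lowest combination genes were Dclk1, S100a9, Mir99ahg, S100a8, Dlg2, Mmp16, Medag, Ccdc62, Galntl6 and Nav1. S100a9 had 50 of 52 UMIs in 1 PBS 1 barcode and 80 of 81 in 1 PBS 2 barcode. The values given for these genes describe single barcodes and not the members as a group. Of the fixed lists, no list had more than 2 genes called in either treated library. For combination the NK lectin, gamma-delta receptor, NKT-type, naive-type, cytotoxic and memory-type CD8 lists had 0. For anti-PD-1 the NK lectin, gamma-delta receptor, naive-type and memory-type CD8 lists had 0. Over all genes, 0.873% were called for the combination and 0.451% for anti-PD-1. At such shares a short list would hold about 0 called genes, so these counts do not show that the lists were unchanged.

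**Figure D5:**
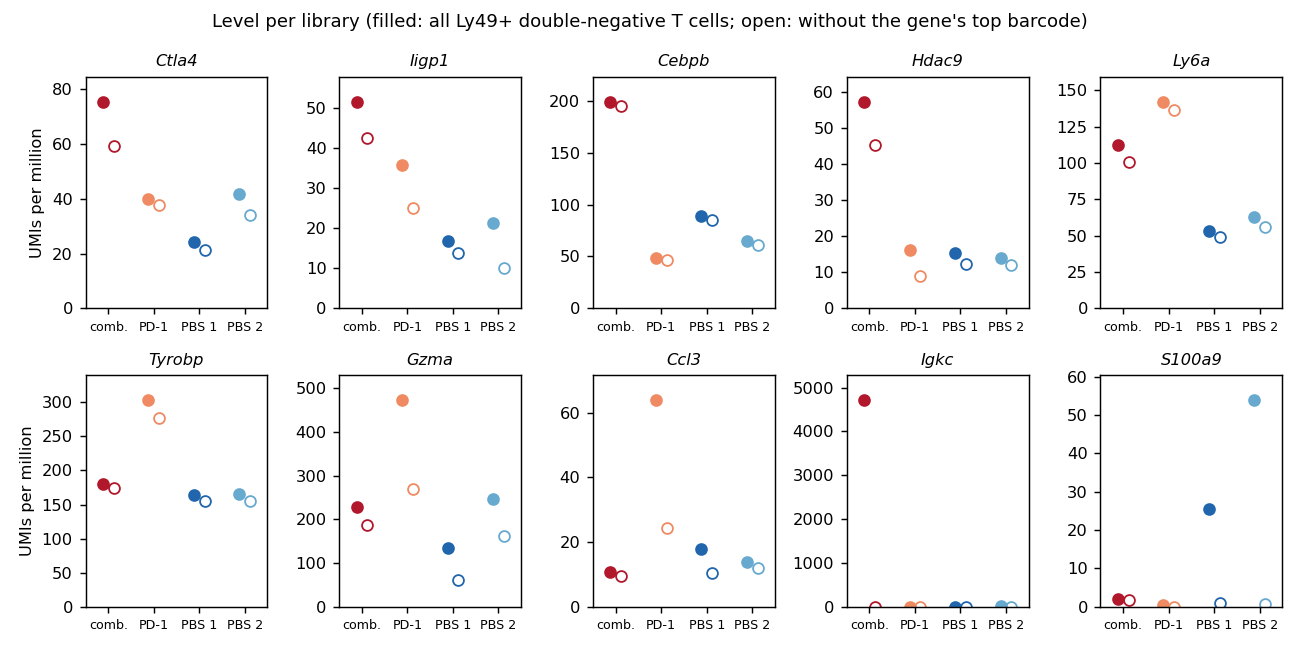
CPM in Ly49+ double-negative T cells (y axis) for 10 genes in the combination, anti-PD-1, PBS 1 and PBS 2 libraries, with all members (filled) and without the gene's top barcode in each library (open). Cebpb stays highest in combination either way, while Igkc falls to 1.44 and S100a9 in PBS 2 to 0.665 without 1 barcode.

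Markers of other cells were low in the members but present. The summed macrophage list stood at 186, 144, 160 and 133 CPM in combination, anti-PD-1, PBS 1 and PBS 2 members, with at least 1 UMI in 63.1, 50.3, 62.5 and 67.5% of them. That list holds genes which the rule limits in members, among them C1qc, so its low sum was in part fixed by the choice. The B cell list stood at 10.5, 11.3, 7.39 and 22.0 in the same libraries. The neutrophil list stood at 3.97 and 2.98 in the treated libraries and 45.3 and 77.2 in PBS 1 and PBS 2, where S100a9 UMIs came from 1 barcode each as given above. The dendritic list stood at 1.80, 0.596, 0.985 and 0.0. The list for CD45-negative cells stood at 164, 90.1, 92.1 and 198, with Krt8 and Krt18 at 0 in all 4. In a further setting, members with any UMI of the B cell, neutrophil or CD45-negative lists were left out. So were those with a UMI of C1qa, C1qb, C1qc, Lyz2, Csf1r, Apoe or Adgre1. Dendritic genes and the other macrophage genes were not part of that choice. In these members without other cells' markers, 23 of 8608 genes were called for the combination and 13 for anti-PD-1.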

How the data were processed

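Live tumour cells were profiled as single-cell libraries of UMI counts, 1 library each for combination, anti-PD-1, PBS 1 and PBS 2. The deposited files hold whole-number UMI counts per gene and barcode; Cell Ranger 3.0.2 and mm10 are named per the submitters' processing notes, while the file headers name cellranger 7.1.0, and intron counting is not stated by either. Barcodes were kept and classed by the UMI limits stated with the results. NK cells were barcodes with at least 1 Ncr1 UMI, and macrophage barcodes had at least 10 C1q UMIs. Both groups also had to hold no UMI of Cd3d, Cd3e or Cd3g. No doublet caller was run. Each share was also computed after thinning cells to 1000 UMIs. Exact 95% intervals are Clopper-Pearson, and a count of 0 is given with a floor of 3 counts.

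UMI counts were summed per library and cell group and tested with edgeR 4.0.16 (limma 3.58.1, R 4.3.3), by the quasi-likelihood test with TMM scaling, low-count filter at 10, prior count 2, SEs taken from the fold change and the F statistic, and Benjamini-Hochberg adjusted p under 0.05. Comparisons of cell groups held the library as a block, since both groups come from the same 4 libraries. For treatment the fit had 1 residual degree of freedom and its prior degrees of freedom were infinite, so genes share 1 trend of spread. Genes of the rule, Klra genes, Trdc, Lef1 and Pde2a were left out of list counts and get no p. The summed macrophage list kept its genes of the rule. Genes named are those of the lists and the 10 highest and lowest called fold changes of each comparison, without mitochondrial genes and unnamed gene models; others are marked. The members and lists were chosen with earlier results of these data known. Alternatives were DESeq2 1.42.0, no filter, thinned sums, a limit of 2 Ly49 UMIs, a limit of 2000 UMIs, members without other cells' markers, each library left out, no block, and, added after seeing the data, removal of each gene's top barcode. Scripts were tested on simulated data. Python 3.11.15, numpy 2.4.6, scipy 1.17.1, pandas 2.3.3 and matplotlib 3.10.9 were used. Promoters are from RefSeq (GRCm38.p6). Some genes of the lists are not reported here by name, but stay in the list counts.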

Additional observations from a re-analysis of the deposited data

How the results depend on the processing

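Calls against Ly49- double-negative T cells numbered 1499 in all and 798 with DESeq2, and leaving out 1 library gave 1025 to 1429. Calls against Ly49+ CD8 T cells numbered 352 in all, 145 with DESeq2, 627 without the low-count filter, 213 with sums thinned to equal totals, 119 with at least 2 Ly49 UMIs, 529 without top barcodes, and 175 to 293 with 1 library left out (180 without anti-PD-1, 175 without the combination). Without the replicate block, 925 genes were called against Ly49- double-negative T cells (417 higher, 508 lower) and 134 against Ly49+ CD8 T cells (78 higher, 56 lower). No paired analysis was possible because each treated arm is 1 library, for the treatment comparisons. Combination calls numbered 91, and 5 with DESeq2, 36 with at least 2 Ly49 UMIs, 23 in members without other cells' markers and 56 without top barcodes. Anti-PD-1 calls numbered 47 (31 higher, 16 lower), and 0 with DESeq2, 13 in members without other cells' markers and 46 with at least 2 Ly49 UMIs (20 higher, 26 lower), of which 16 were shared with the 47. All 47 and 91 kept their direction without either saline library. The same treated library stayed in place, so this was largely fixed by the choice of called genes and is no test of the calls. Reversed values were Gzma at -0.030 and Dusp1 (against Ly49- double-negative T cells) at 0.0091 in members without other cells' markers, Map1b at -1.76 with at least 2 Ly49 UMIs, and Nav1 at 0.29 (anti-PD-1) and 0.42 (combination) without top barcodes. The cause was not tested. Depth limits the shares: thinned to 1000 UMIs, means over libraries were 16.2% for members among double-negative T cells, 9.23% for Trdc, 23.7% for Trac, 7.79% for Zbtb16 and 30.0% for Lef1, and with at least 2 Ly49 UMIs members made up 26.7%.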
